A study of Mus musculus with 6 samples.

Results

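The leukotriene and prostaglandin synthesis enzymes are the 10 genes Alox5, Alox5ap, Ltc4s, Lta4h, Ptgs1, Ptgs2, Hpgds, Pla2g4a, Tbxas1 and Ptges, picked by gene symbol from a deposited expression table of 24672 genes. All 10 were in the table. They were described in RNA sequencing libraries of cultured C57BL/6 mouse cells past passage 20, with 3 libraries of differentiated cells (labelled Dif-FGSC) and 3 of the undifferentiated female germline stem cells (FGSC). Dif-FGSC had been moved onto inactivated granulosa cells in medium with retinoic acid at 0.1 µmol/L, BMP4 at 10 ng/mL and bFGF at 10 ng/mL. FGSC had been kept on inactivated STO fibroblast feeders with 10 ng/mL LIF, 20 ng/mL EGF, 10 ng/mL bFGF and 10 ng/mL GDNF. Both groups were grown in serum-containing MEM alpha medium, and feeder cells, growth factors and retinoic acid changed together, so their parts in a difference cannot be told apart. The series title names retinoic acid and the start of meiosis as the question. Female germline stem cells are proliferating ovarian cells described as able to form oocytes.

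Eicosanoids are short-lived lipid signals made from arachidonic acid. Cytosolic phospholipase A2 (Pla2g4a) frees arachidonic acid from membrane phospholipids. The lipoxygenase encoded by Alox5, helped by the membrane protein FLAP (Alox5ap), turns it into leukotriene A4, which Lta4h converts to leukotriene B4 and Ltc4s joins to glutathione to give leukotriene C4. The cyclooxygenases Ptgs1 and Ptgs2 instead turn it into prostaglandin H2, the shared precursor of prostaglandin D2 (Hpgds), thromboxane A2 (Tbxas1) and prostaglandin E2 (Ptges). Mast cells, macrophages and platelets are known for making these lipids, and in the ovary prostaglandins take part in ovulation.

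Among the 5 enzymes with a mean of at least 1 FPKM, Tbxas1, Ptgs1 and Pla2g4a had the largest differences in log2(FPKM + 1) between the groups, and their promoters are shown together with that of Ptgs2, the second cyclooxygenase, so that the start regions of the paired genes can be compared. Each is the RefSeq window of 300 bases (250 before and 50 after the start), written 5′ to 3′ along the gene. Capitals mark matches, on either strand, to any of 6 motifs. They are the TATA box with the letters TATAAA, the core of nuclear receptor sites with the letters AGGTCA and the GATA site with the letters AGATAA. The others are the AP-1 site with the letters TGANTCA, the E-box with the letters CACGTG and the GC box with the letters GGGCGG.
Ptgs1 promoter, GRCm38.p6 chr2:36230176-36230475, plus strand: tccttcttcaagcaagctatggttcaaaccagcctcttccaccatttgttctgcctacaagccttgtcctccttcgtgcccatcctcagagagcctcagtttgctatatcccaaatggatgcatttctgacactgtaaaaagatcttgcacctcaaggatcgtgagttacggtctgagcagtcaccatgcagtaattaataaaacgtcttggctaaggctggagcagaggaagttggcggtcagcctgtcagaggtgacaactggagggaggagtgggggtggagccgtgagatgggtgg
Tbxas1 promoter, GRCm38.p6 chr6:38918736-38919035, plus strand: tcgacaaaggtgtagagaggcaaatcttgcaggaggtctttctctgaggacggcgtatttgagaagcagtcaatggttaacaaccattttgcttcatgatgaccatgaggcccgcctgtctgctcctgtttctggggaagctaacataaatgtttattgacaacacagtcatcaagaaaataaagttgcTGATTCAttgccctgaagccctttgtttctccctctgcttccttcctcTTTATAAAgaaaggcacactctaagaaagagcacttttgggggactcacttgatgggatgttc
Pla2g4a promoter, GRCm38.p6 chr1:149961241-149961540, minus strand: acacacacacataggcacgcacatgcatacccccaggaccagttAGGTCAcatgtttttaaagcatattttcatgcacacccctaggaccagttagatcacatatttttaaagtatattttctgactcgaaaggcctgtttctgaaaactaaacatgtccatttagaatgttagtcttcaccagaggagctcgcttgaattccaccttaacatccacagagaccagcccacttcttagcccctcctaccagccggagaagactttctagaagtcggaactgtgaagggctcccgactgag
Ptgs2 promoter, GRCm38.p6 chr1:150099781-150100080, plus strand: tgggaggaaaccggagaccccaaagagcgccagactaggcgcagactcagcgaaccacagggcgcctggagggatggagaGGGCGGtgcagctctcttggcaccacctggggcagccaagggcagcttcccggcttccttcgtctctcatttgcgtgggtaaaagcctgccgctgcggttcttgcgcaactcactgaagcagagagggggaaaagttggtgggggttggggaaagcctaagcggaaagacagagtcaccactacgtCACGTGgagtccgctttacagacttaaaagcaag
The Ptgs1 window held none of these letters. In the Tbxas1 window, TATAAA stood at position -11 from the RefSeq start and, overlapping it, as the reverse complement TTTATA at -13, and an AP-1 match stood at -61. The Pla2g4a window held AGGTCA at -206, and the Ptgs2 window held GGGCGG at -170 and CACGTG at 17. Of 32851 RefSeq windows of the same length, 13.6% held TATAAA, 16.3% AGGTCA, 11.2% AGATAA, 7.81% TGANTCA, 7.15% CACGTG and 35.7% GGGCGG. The share of G and C was 50.7% in the Ptgs1 window, 44.3% in that of Tbxas1, 45.3% in that of Pla2g4a and 59.3% in that of Ptgs2. RefSeq lists 2 starts for Pla2g4a, of which the upstream one is shown. Promoter windows were matched for 9 of the 10 genes, and that of Alox5ap was not used here. On chromosome 1 Pla2g4a and Ptgs2 are adjacent among protein-coding genes of the reference annotation.

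Each of the 10 genes had 1 value per library, in FPKM, the fragments per kilobase of transcript scaled to the mapped fragments of the library, which compares genes per length. The steps between low values implied about 22.4, 19.5 and 19.4 M fragments in the Dif-FGSC libraries and 26.9, 21.8 and 17.3 M in the FGSC libraries. In 5 of the 6 libraries a depth near 2 times as large met the steps almost as well, so the fragment numbers given with low values are approximate. The cell type named in the labels was not borne out by its markers: 11 of 13 germ cell markers, among them Ddx4, Dazl and Sycp3, stayed below 0.1 FPKM in every library. The summed FPKM of 23 mast cell and basophil markers was 896 to 907 in Dif-FGSC libraries and 754 to 820 in FGSC libraries. These markers were led by Cpa3, a mast cell protease, while the IgE receptor subunits Fcer1a and Ms4a2 stayed at or below 0.174 FPKM. Of the 23 markers, 7 stayed below 0.1 FPKM in every library, 4 of them at 0. The groups are therefore named by their labels only, and the prefix con in the table was read as control, that is FGSC.

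Expression of the 10 enzymes fell into an upper and a lower set. Alox5ap, Ptgs1, Lta4h and Pla2g4a stood above 10 FPKM in every library. Tbxas1 stood between 1.93 and 2.51 FPKM in Dif-FGSC libraries and at or below 0.0581 FPKM in FGSC libraries. Hpgds stayed between 0.563 and 1.17 FPKM over both groups, Ltc4s between 0.134 and 0.415, and Ptges, Alox5 and Ptgs2 stayed below 0.2 FPKM in every library. The members had been proposed with the levels and group differences of these libraries known, so their values are given as a description, without p-values. Groups did not overlap for 7 of the 10 enzymes, 5 of them higher and 2 lower in Dif-FGSC. The share without overlap was 53.2% among all 14637 genes above 0 in at least 1 library and 70.7% among the 9162 genes with a mean of at least 1 FPKM, and nothing is read from the members' count. In libraries of bulk RNA, fewer cells of a type and less RNA per cell cannot be told apart.

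**Figure D1:**
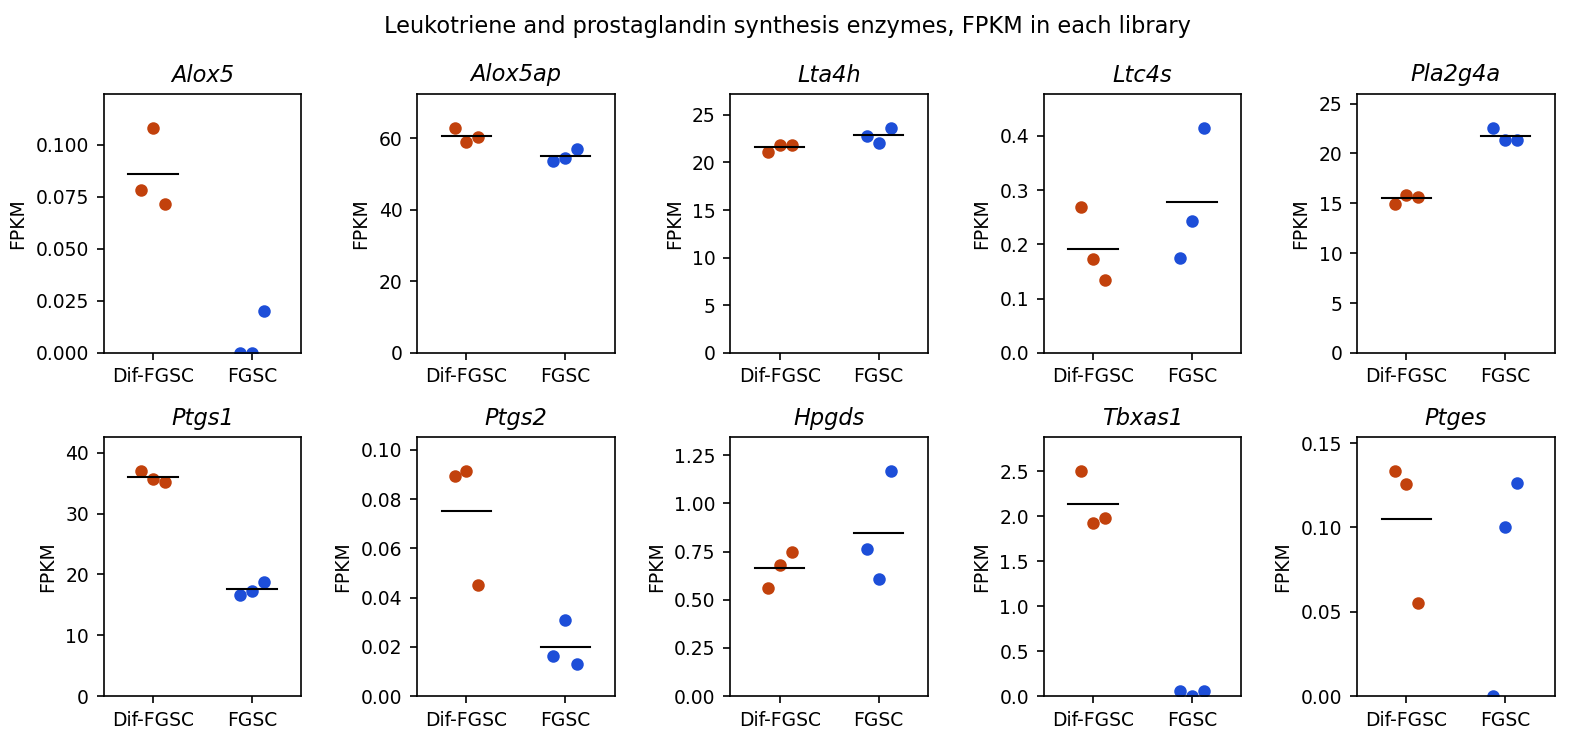
FPKM (y axis, linear from 0, each panel on its own scale) of the 10 enzymes in the 3 Dif-FGSC libraries (left, orange) and the 3 FGSC libraries (right, blue), with 1 point per library and a line at the mean of each group in which no library is at 0. Ptgs1 lies between 35.2 and 37.0 FPKM in Dif-FGSC and between 16.7 and 18.8 FPKM in FGSC, and Pla2g4a between 15.0 and 15.8 FPKM in Dif-FGSC and between 21.3 and 22.6 FPKM in FGSC.

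Pla2g4a, the phospholipase that supplies both branches, was lower in Dif-FGSC. Its level was 15.0, 15.8 and 15.6 FPKM in Dif-FGSC libraries and 22.6, 21.4 and 21.3 FPKM in FGSC libraries. All 3 Dif-FGSC libraries lay below all 3 FGSC libraries. The means were 15.5 ± 0.447 FPKM in Dif-FGSC and 21.8 ± 0.707 FPKM in FGSC (SD, n = 3 each), and the difference in log2(FPKM + 1) was -0.47 ± 0.038 (SE of the limma fit). Of the 9162 genes tested, 477 had a larger fall than Pla2g4a.

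In the leukotriene branch the accessory protein was abundant and the lipoxygenase itself was close to the detection floor. Alox5ap, which holds arachidonic acid for the lipoxygenase at the nuclear membrane, stood at 63.0, 59.0 and 60.4 FPKM in Dif-FGSC libraries and 53.8, 54.6 and 57.0 FPKM in FGSC libraries. Its groups did not overlap, but the step was small, 1.10-fold between the means, with a difference in log2(FPKM + 1) of 0.14 ± 0.036 (SE), and 3303 of the 9162 tested genes had a larger rise. Alox5 was listed at 0.0782, 0.108 and 0.0713 FPKM in Dif-FGSC libraries and at 0, 0 and 0.0203 FPKM in FGSC libraries. With the longest coding transcript this corresponds to about 4.9, 5.9 and 3.9 fragments in Dif-FGSC libraries and 0, 0 and 1.0 in FGSC libraries. A floor of 3 fragments per library lay at 0.0475 to 0.0548 FPKM in Dif-FGSC libraries and 0.0395 to 0.0615 FPKM in FGSC libraries. The Alox5 libraries of Dif-FGSC were all above their floor and those of FGSC all below theirs, but each value rests on very few fragments. In the Dif-FGSC libraries Alox5ap was 805, 546 and 848 times as high as Alox5 per length.

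Lta4h and Ltc4s, the enzymes that act after Alox5, showed a small step and no separation. Lta4h stood at 21.1, 21.8 and 21.9 FPKM in Dif-FGSC libraries and 22.8, 22.1 and 23.6 FPKM in FGSC libraries. The groups lay next to each other without overlap, and the difference in log2(FPKM + 1) was -0.08 ± 0.036 (SE), and -0.15 after quantile normalization. Lta4h also acts as an aminopeptidase. Ltc4s, which shares a protein family with FLAP, stood at 0.268, 0.174 and 0.134 FPKM in Dif-FGSC libraries and 0.174, 0.243 and 0.415 FPKM in FGSC libraries. The Ltc4s groups overlapped, and these values correspond to only 1.9 to 5.1 fragments per library. In the reference annotation, opposite-strand genes without a row in the table overlap exons of Ltc4s, Alox5ap, Ptgs1 and Tbxas1, and the strand setting of the counting is not given in the sources used here.

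In the prostanoid branch Ptgs1 was about 2-fold higher in Dif-FGSC. Ptgs1, the constitutive cyclooxygenase, stood at 37.0, 35.7 and 35.2 FPKM in Dif-FGSC libraries and 16.7, 17.2 and 18.8 FPKM in FGSC libraries. The lowest Dif-FGSC library lay far above the highest FGSC library. The means were 36.0 ± 0.922 FPKM in Dif-FGSC and 17.5 ± 1.09 FPKM in FGSC (SD, n = 3 each), a ratio of 2.05, with a difference in log2(FPKM + 1) of 1.00 ± 0.047 (SE). Of the 9162 genes tested, 184 had a larger rise. The ratio of Ptgs1 to Pla2g4a within a library was 2.47, 2.26 and 2.25 in Dif-FGSC and 0.738, 0.804 and 0.881 in FGSC, so the order of the pair was turned round between the groups.

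Ptgs2, the inducible cyclooxygenase, stayed near the floor throughout. It was listed at 0.0893, 0.0914 and 0.0452 FPKM in Dif-FGSC libraries and 0.0164, 0.0307 and 0.0129 FPKM in FGSC libraries. These correspond to about 8.9, 7.9 and 3.9 fragments in Dif-FGSC libraries and 2.0, 3.0 and 1.0 in FGSC libraries. The Dif-FGSC values were the higher ones, without overlap, and all FGSC values lay below the floor of 3 fragments. In FGSC library 2 this was by a narrow margin, 0.0307 FPKM against a floor of 0.0309 FPKM, and the floor rests on the approximate depth. Ptgs1 stood 414, 391 and 779 times as high as Ptgs2 per length in Dif-FGSC libraries, and 1015, 560 and 1457 times as high in FGSC libraries.

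Tbxas1, thromboxane A synthase, was low but clear in Dif-FGSC and at trace values in FGSC. It stood at 2.51, 1.93 and 1.99 FPKM in Dif-FGSC libraries, about 112, 74.9 and 76.7 fragments, and at 0.0555, 0 and 0.0581 FPKM in FGSC libraries, about 3.0, 0 and 2.0 fragments. No FGSC library stood above the floor of 3 fragments, which was 0.056 to 0.0871 FPKM there and rests on the approximate depth. FGSC library 1 lay just below its floor of 0.056 FPKM. No fold is given because a 0 can be a failed estimate. The difference in log2(FPKM + 1) was 1.59 ± 0.081 (SE), and 64 of the 9162 tested genes had a larger rise. It depends strongly on the pseudocount and was 4.04 in log2(FPKM + 0.1). With a mean of 1.09 FPKM over the 6 libraries, Tbxas1 passed the filter of 1 FPKM through the Dif-FGSC libraries alone and fell below it when any one of them was left out. In the reference annotation the kinase gene Hipk2, chosen here after its values were seen, overlaps Tbxas1 on the opposite strand without shared exons. Hipk2 averaged 3.26 FPKM in Dif-FGSC and 1.22 FPKM in FGSC, and its part in the Tbxas1 values was not tested.

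Hpgds and Ptges, the synthases of prostaglandin D2 and of inducible prostaglandin E2, did not separate the groups. Hpgds, the form of blood cells, stood at 0.563, 0.680 and 0.749 FPKM in Dif-FGSC libraries and 0.765, 0.609 and 1.17 FPKM in FGSC libraries. Its groups overlapped, with FGSC library 3 the highest, and its mean over the 6 libraries, 0.756 FPKM, lay just below the filter. Ptges was listed at 0.133, 0.126 and 0.0553 FPKM in Dif-FGSC libraries and at 0, 0.100 and 0.126 FPKM in FGSC libraries. The groups of Ptges overlapped, at about 3.9 to 10.9 fragments in Dif-FGSC libraries and 0 to 8.0 in FGSC libraries. The 0, in FGSC library 1, can be a failed estimate.

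The order of the levels differed between the groups. In Dif-FGSC it ran Alox5ap, Ptgs1, Lta4h, Pla2g4a, Tbxas1, Hpgds and Ltc4s, and no neighbours among these overlapped, while the libraries of Ptges, Alox5 and Ptgs2 overlapped one another at the lower end. In FGSC it ran Alox5ap, Lta4h, Pla2g4a, Ptgs1, Hpgds and Ltc4s. There Lta4h, at 22.1 to 23.6 FPKM, and Pla2g4a, at 21.3 to 22.6 FPKM, were not separated, while the libraries of Ptges, Tbxas1, Ptgs2 and Alox5 overlapped at the lower end.

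Of the 10 enzymes, 5 had a mean of at least 1 FPKM and entered the fit across all genes. The fit's calls (adjusted p under 0.05) are given for them only as a description and test nothing about the members. They were 3 higher in Dif-FGSC (Alox5ap, Ptgs1 and Tbxas1) and 1 lower (Pla2g4a), with Lta4h not called. Tbxas1 had entered the fit only through the group where it was high, so that its groups had to differ. Of all 9162 genes tested, 65.1% were called, 36.5% as higher and 28.6% as lower, and nothing is read from the members' counts since this contrast was known when they were chosen. With median-ratio scaling or quantile normalization Lta4h passed too, so that 2 enzymes were called lower. Without the filter on low values Alox5 and Ptgs2 were also called, making 5 higher.

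**Figure D2:**
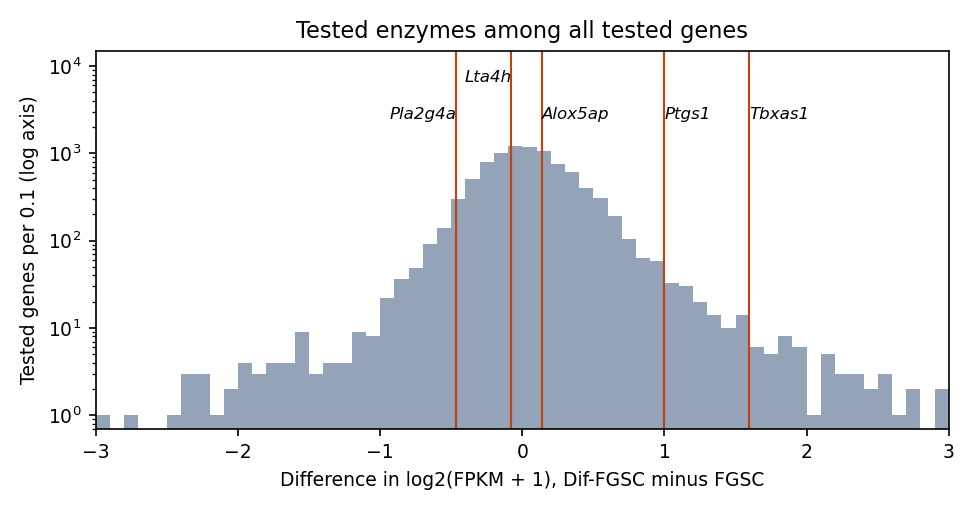
Differences in log2(FPKM + 1) between Dif-FGSC and FGSC (x axis) for all 9162 genes tested, with the number of genes per bin on a log axis; 23 genes lie outside the range drawn. Lines mark the 5 tested enzymes: Lta4h at -0.08 and Alox5ap at 0.14 lie in the centre, Pla2g4a at -0.47 on the left, and Ptgs1 at 1.00 and Tbxas1 at 1.59 on the right.

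The tested genes whose profiles over the 6 libraries lay nearest to that of Ptgs1 were Cbl, Irak2 and Gdpd1, with root mean square differences of 0.0273, 0.0277 and 0.0306 between centred log2(FPKM + 1) values. Cbl, a ubiquitin ligase of receptor signalling, averaged 12.7 ± 0.325 FPKM in Dif-FGSC and 5.88 ± 0.457 FPKM in FGSC (SD, n = 3 each). Irak2, a kinase of interleukin-1 and Toll-like receptor signalling, averaged 2.61 ± 0.144 FPKM in Dif-FGSC and 0.767 ± 0.133 FPKM in FGSC. Gdpd1, a phosphodiesterase of lysophospholipids, averaged 2.06 ± 0.0856 FPKM in Dif-FGSC and 0.562 ± 0.115 FPKM in FGSC. With 6 libraries in 2 groups, genes with a like step between the groups come out as near.

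The other genes of the pathway were listed by function, outside the 10 enzymes. The table held 105 of them and 46 entered the fit, where 22 were higher, 8 lower and 16 not called by limma after Benjamini-Hochberg adjustment over all 9162 genes. That is 65.2% called, close to the 65.1% of all genes. The counts of the single lists given below rest on few tested genes each, and nothing is read from them. Their median difference in log2(FPKM + 1) was 0.13, against 0.029 for all tested genes.

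Among genes listed for the release of arachidonic acid or for reacylation, a larger share of the reacylation list passed the filter, which depends on how the lists were drawn up. Of 22 release genes 6 were tested, with Daglb, a diacylglycerol lipase, and Pla2g15, a lysosomal phospholipase, higher and Pnpla8, a calcium-independent phospholipase, lower in Dif-FGSC. Daglb averaged 10.9 ± 0.308 FPKM in Dif-FGSC and 8.13 ± 0.446 FPKM in FGSC (limma adjusted p = 0.000245). The calls of Pla2g15 (adjusted p = 0.0116, and 0.154 after quantile normalization) and Pnpla8 (adjusted p = 0.0205, and 0.0549 without the filter) were lost under some settings, within ranges of 0.0105 to 0.154 and 0.00441 to 0.0593 over their alternatives. The Pnpla8 call was also lost without Dif-FGSC library 1 (0.0593) or 2 (0.0531). Of 12 reacylation genes 11 were tested, with 5 higher and 2 lower. Lpcat4, an acyltransferase of lysophospholipids, averaged 82.4 ± 1.56 FPKM in Dif-FGSC and 59.3 ± 0.737 FPKM in FGSC (limma adjusted p = 6.77e-06). Mboat7, which puts arachidonic acid into phosphatidylinositol, averaged 41.8 ± 0.932 FPKM in Dif-FGSC and 31.1 ± 1.47 FPKM in FGSC (limma adjusted p = 7.89e-05). Lpcat1, another such acyltransferase, rose by 0.42 ± 0.085 in log2(FPKM + 1), while Acsl3, an acyl-CoA synthetase, fell to 4.90 ± 0.239 FPKM in Dif-FGSC, against 7.65 ± 1.04 FPKM in FGSC (limma adjusted p = 0.000776).

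Prostacyclin synthase, Ptgis, had the largest difference among the 46 tested genes. It stood at 9.75, 9.42 and 10.2 FPKM in Dif-FGSC libraries and 4.02, 3.59 and 4.48 FPKM in FGSC libraries. Every Dif-FGSC library stood above every FGSC library, and the difference in log2(FPKM + 1) was 1.11 ± 0.068 (SE, limma adjusted p = 8.7e-06). The table held 19 further terminal synthase genes, and among the tested ones, 6 in all, there were 3 higher and 0 lower in the limma fit (adjusted p under 0.05). Besides Ptgis these were Mgst3, a microsomal glutathione transferase that averaged 6.14 ± 0.568 FPKM in Dif-FGSC and 4.74 ± 0.469 FPKM in FGSC (limma adjusted p = 0.00938), and the aldose reductase Akr1b3, whose groups overlapped (limma adjusted p = 0.0479). Akr1b3, Ptges2, Ptges3, Hpgd, Tbxa2r, Ptgdr and Ptgdr2 were named after their values were seen. The prostaglandin E synthase Ptges2 averaged 20.5 ± 1.00 FPKM in Dif-FGSC and 19.5 ± 1.56 FPKM in FGSC, and Ptges3, a co-chaperone with that activity, 193 ± 1.39 FPKM in Dif-FGSC and 199 ± 22.4 FPKM in FGSC. Neither was called (limma adjusted p = 0.345 and 0.660).

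None of the 6 other lipoxygenase genes reached a mean of 1 FPKM. Alox15 and Ggt1, named after their values were seen, were below the filter and not tested. Alox15, the lipoxygenase that makes hydroxy acids and lipoxin precursors, was listed at 0.715, 0.823 and 0.772 FPKM in Dif-FGSC libraries and 0.0606, 0.0567 and 0.143 FPKM in FGSC libraries. Ggt1, a gamma-glutamyl transferase that can turn leukotriene C4 into leukotriene D4, was listed at 0.582, 0.707 and 0.770 FPKM in Dif-FGSC libraries and 0.0172, 0.0537 and 0.0135 FPKM in FGSC libraries. In both genes each Dif-FGSC library lay above each FGSC library. Fragment numbers were not estimated for Alox15 or Ggt1, and their low FGSC values may rest on very few fragments.

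Of 5 transport genes 3 were tested, with 2 higher and 1 lower, where 65.1% of all tested genes were called. Abcc4, an exporter of prostaglandins, averaged 6.29 ± 0.129 FPKM in Dif-FGSC and 3.52 ± 0.174 FPKM in FGSC (limma adjusted p = 1.09e-05). Abcc1, which exports leukotriene C4, averaged 24.6 ± 0.272 FPKM in Dif-FGSC and 16.9 ± 0.489 FPKM in FGSC (limma adjusted p = 1.07e-05). Slco4a1, an organic anion carrier, was lower in Dif-FGSC at 0.879 ± 0.0332 FPKM, against 1.14 ± 0.135 FPKM in FGSC (limma adjusted p = 0.0322). With a mean of 1.01 FPKM over the 6 libraries, Slco4a1 passed the filter of 1 FPKM through the FGSC libraries alone. It fell below the filter without FGSC library 2 or 3. The filter thus asked for higher values in FGSC, and nothing is read from the call of Slco4a1. Its call was lost without any one of the Dif-FGSC libraries (0.0619, 0.09 and 0.0676), within a range of 0.00465 to 0.09 over its alternatives.

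Receptor transcripts were mainly those of prostanoid receptors. Of 16 receptor genes 5 were tested, 4 of them higher and 1 lower in Dif-FGSC, where 65.1% of all tested genes were called. Of the 16, 8 stayed below 0.1 FPKM in every library. Ptgir, the prostacyclin receptor, was the most abundant, at 60.4, 58.5 and 57.5 FPKM in Dif-FGSC libraries and 52.5, 52.4 and 54.4 FPKM in FGSC libraries (limma adjusted p = 0.00483). Ptger4, a receptor for prostaglandin E2, averaged 6.92 ± 0.230 FPKM in Dif-FGSC and 4.78 ± 0.291 FPKM in FGSC (limma adjusted p = 0.000146). Ptger1, another, stood at 7.50, 8.06 and 5.58 FPKM in Dif-FGSC libraries and 2.72, 3.38 and 4.71 FPKM in FGSC libraries (limma adjusted p = 0.00401), with the largest SE of the 5 receptors. Ptger3 averaged 23.1 ± 1.08 FPKM in Dif-FGSC and 20.8 ± 0.496 FPKM in FGSC (limma adjusted p = 0.0174). The Ptger3 call was lost with median-ratio scaling (0.0557), with quantile normalization (0.224) and without Dif-FGSC library 2 (0.0566), within a range of 0.0151 to 0.224. The lower one was Ltb4r1, the high-affinity receptor for leukotriene B4, at 4.39, 4.57 and 3.44 FPKM in Dif-FGSC libraries and 5.65, 6.56 and 6.89 FPKM in FGSC libraries (limma adjusted p = 0.00236). The thromboxane receptor gene Tbxa2r did not exceed 0.063 FPKM, and the prostaglandin D2 receptor genes Ptgdr and Ptgdr2 were listed at 0 in every library.

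**Figure D3:**
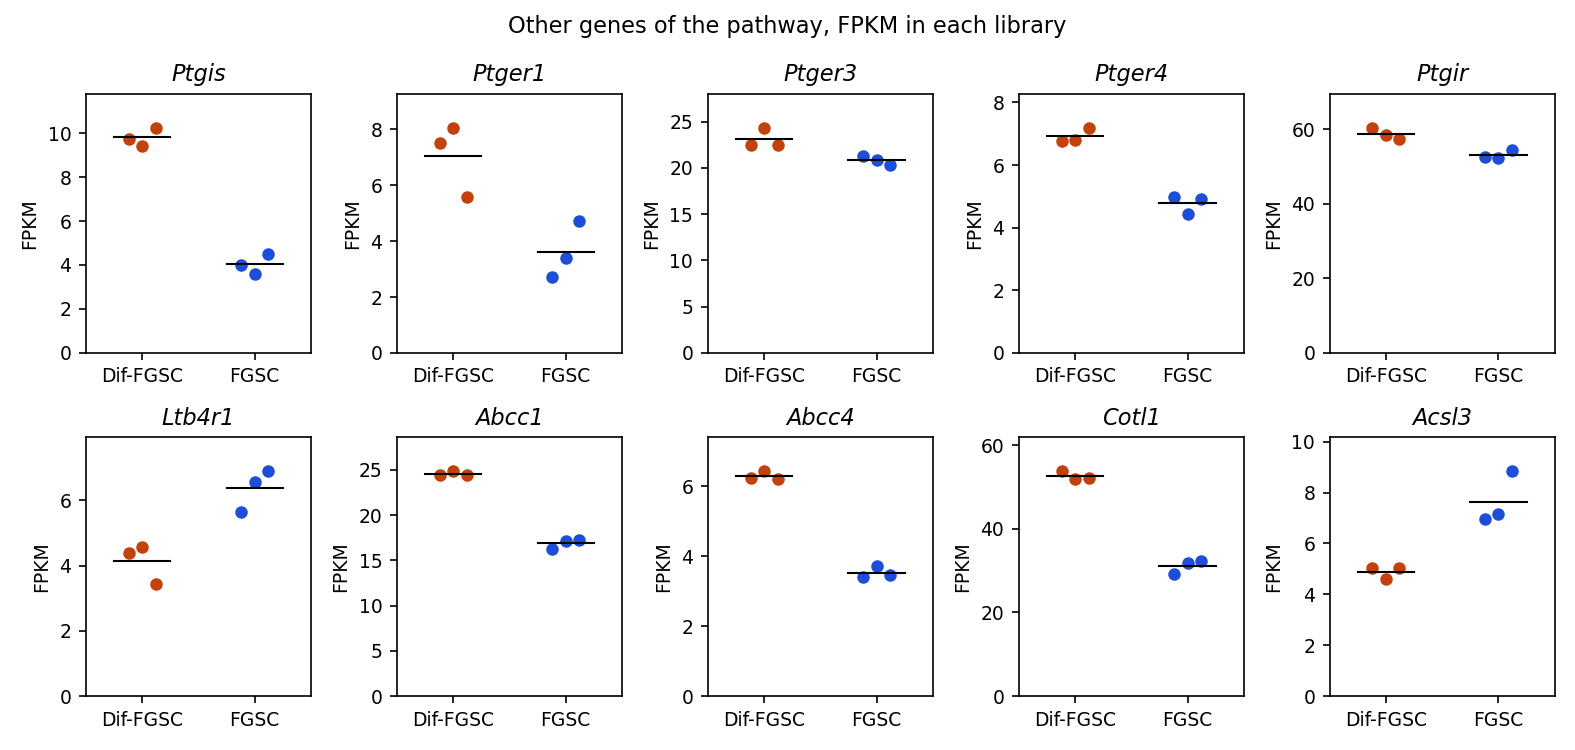
FPKM (y axis, linear from 0, each panel on its own scale) of Ptgis, 5 receptors, 2 exporters, Cotl1 and Acsl3 in the 3 Dif-FGSC libraries (left, orange) and the 3 FGSC libraries (right, blue), with 1 point per library and a line at the mean. Ptgis lies between 9.42 and 10.2 FPKM in Dif-FGSC and between 3.59 and 4.48 FPKM in FGSC, and Ltb4r1 and Acsl3 are the panels with lower values in Dif-FGSC.

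Of 16 inactivation genes 15 were in the table and 5 were tested, with Ptgr2 higher and Ptgr1 and Cyp4f16 lower in Dif-FGSC. Ptgr1, which reduces prostaglandin metabolites and oxidises leukotriene B4, averaged 8.39 ± 0.686 FPKM in Dif-FGSC and 9.80 ± 0.493 FPKM in FGSC (limma adjusted p = 0.0218). Its call was lost without FGSC library 1 (0.0524) or 3 (0.0599) or Dif-FGSC library 2 (0.0552), within a range of 0.00386 to 0.0599. Ptgr2, another prostaglandin reductase, averaged 6.45 ± 0.204 FPKM in Dif-FGSC and 5.76 ± 0.111 FPKM in FGSC (limma adjusted p = 0.0154), and this call was lost with quantile normalization (0.239) and without Dif-FGSC library 3 (0.0552), within a range of 0.0111 to 0.239. Cyp4f16, a cytochrome of a family that oxidises leukotriene B4, averaged 0.856 ± 0.0311 FPKM in Dif-FGSC and 1.17 ± 0.126 FPKM in FGSC (limma adjusted p = 0.0141). With a mean of 1.01 FPKM over the 6 libraries, Cyp4f16 too passed the filter through the FGSC libraries alone. It fell below the filter without FGSC library 2 or 3, and nothing is read from its call. Hpgd, the dehydrogenase that starts prostaglandin breakdown, was listed at 0 in every library.

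All 10 genes for partners of these enzymes and for their kinases were tested, with 5 higher, 1 lower and 4 not called. Cotl1, whose human protein binds the lipoxygenase of the leukotriene branch, averaged 52.6 ± 1.02 FPKM in Dif-FGSC and 31.1 ± 1.64 FPKM in FGSC (limma adjusted p = 5.91e-06). Mapkapk2, a kinase that phosphorylates that lipoxygenase in human cells, averaged 87.8 ± 0.988 FPKM in Dif-FGSC and 74.9 ± 1.52 FPKM in FGSC (limma adjusted p = 0.000233), and the related Mapkapk3 rose by 0.37 ± 0.059 in log2(FPKM + 1). Mapk3, the kinase ERK1 that can phosphorylate cytosolic phospholipase A2, fell to 28.5 ± 0.827 FPKM in Dif-FGSC, against 35.5 ± 1.87 FPKM in FGSC (limma adjusted p = 0.000638).

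**Figure D4:**
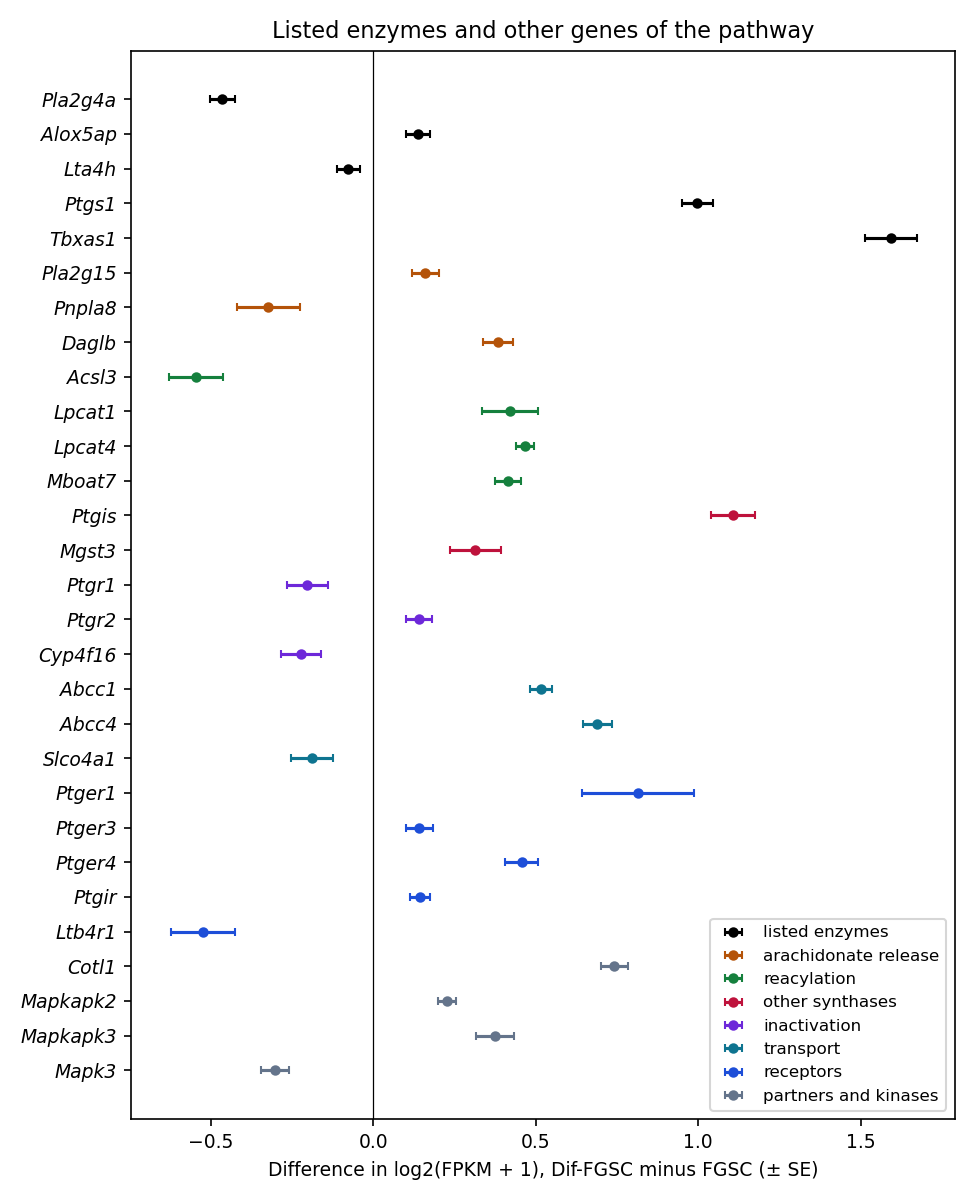
Differences in log2(FPKM + 1), Dif-FGSC minus FGSC (x axis), with bars of 1 SE, for the 5 tested enzymes (black) and 24 other genes of the pathway, coloured by function. Ptgs1 at 1.00 and Tbxas1 at 1.59 lie on the right together with Ptgis at 1.11, and Pla2g4a at -0.47, Acsl3 at -0.55 and Ltb4r1 at -0.52 on the left.

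Some markers of cell types known to make these lipids differed between the groups. Of the 23 mast cell and basophil markers 11 were tested, 9 higher and 1 lower in Dif-FGSC. Of all tested genes, 36.5% were called higher and 28.6% lower. Among the 9, Mcpt2 averaged 4.57 FPKM in Dif-FGSC and 0.371 FPKM in FGSC. Mcpt8 averaged 8.21 FPKM in Dif-FGSC and 0.596 FPKM in FGSC. Both passed the filter of 1 FPKM through the Dif-FGSC libraries alone, so that their groups had to differ. Nothing is read from the count of these markers. The summed FPKM of 14 macrophage and monocyte markers was 15.7 to 16.1 in Dif-FGSC libraries and 29.3 to 30.8 in FGSC libraries, and of these markers 7, Csf1r and the C1q genes among them, stayed below 0.1 FPKM. Only 3 of the 14 were tested, and they did not move together, with Cd68 higher and Adgre1 and Fcgr1 lower. The lower sum in Dif-FGSC came mainly from Adgre1, which averaged 4.28 ± 0.173 FPKM in Dif-FGSC and 20.3 ± 0.324 FPKM in FGSC (SD, n = 3 each). Cd68, a lysosomal protein, averaged 6.19 ± 0.118 FPKM in Dif-FGSC and 3.19 ± 0.271 FPKM in FGSC. These genes were named after their values were seen. The summed FPKM of 8 platelet and megakaryocyte markers was 49.0 to 51.5 in Dif-FGSC libraries and 55.0 to 60.8 in FGSC libraries, nearly all of it from Itga2b, with Gp6 and Gp1bb at 0. The part of these differences in the enzyme values was not tested. For the feeder cells, 10 fibroblast markers summed to 0.164 to 0.239 FPKM in Dif-FGSC libraries and 0.337 to 0.639 FPKM in FGSC libraries, and 11 granulosa markers to 0.474 to 0.674 FPKM in Dif-FGSC libraries and 0.663 to 0.843 FPKM in FGSC libraries. All 8 neutrophil markers stayed below 0.1 FPKM.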

How the data were processed

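RNA of 6 cultured mouse cell samples, 3 Dif-FGSC and 3 FGSC, was extracted with Trizol and made into libraries with a KAPA stranded mRNA kit, per the labels' protocols. The authors deposited 1 table of FPKM values with a row per gene symbol. HISAT2 4.8.2, Cufflinks 2.2.1 and mouse build mm9 are listed in the submitters' processing notes without a role; the sources used here do not give the annotation or the strand setting. Of 24674 rows, the higher of each of 2 duplicated symbols was kept. A further column without a name held 1 value, which was not used.

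Genes with a mean of at least 1 FPKM entered a fit by limma 3.58.1 (R 4.3.3; lmFit, then eBayes with trend) of log2(FPKM + 1). This scale makes changes of low genes look smaller. P-values had Benjamini-Hochberg adjustment over all of them and were called under 0.05. FPKM values are not counts, so no count model was used. An exact permutation test of 3 against 3 libraries reaches 0.1 at best. Since no label states that the libraries are of separate cultures, their spread may be technical, and p-values cover that spread alone. The members and lists were chosen with earlier results of these data known. The genes named were the 10 enzymes, up to 4 called genes with non-overlapping groups per list, the tested receptors, and the 3 profiles nearest to each enzyme at 5 FPKM or more that differed by at least 0.5; others are said to be chosen after their values were seen. Depth was estimated from the low values among 4428 genes with 1 GENCODE transcript, which were 320 to 360 values per library. Of these values, 73.3% to 76.2% lay within 0.1 of whole fragments, where chance gives 20%. The step was, however, set on these same values. Floors of 3 fragments are rough and allow for counting error alone. The script was tested on simulated data. Promoter sequences are RefSeq's, of build GRCm38.p6, and were not joined to the mm9-based values by position. Alternatives were another pseudocount, filter, scaling and prior, a replicate block, and each library left out.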

Additional observations from a re-analysis of the deposited data

How the results depend on the processing

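The directions of the tested enzymes and of the 24 named pathway genes held under every alternative in which they were tested. Most were tested in all 13 alternatives, but genes below the filter dropped out of some. Tbxas1 was tested in 9, Cyp4f16 and Slco4a1 in 10 each, and Abcc4 and Pnpla8 in 12 each. With no filter on low values, 5 enzymes were past the threshold as higher. With median-ratio scaling and with quantile normalization 2 were lower. For other pathway genes, 5 were called lower with a filter of 5 FPKM, which tests fewer genes. With quantile normalization 15 of them were called higher and 13 lower, against 22 and 8 in the main fit. Over all genes tested, that setting called 2789 higher and 3185 lower, against 3343 and 2622. The balance of higher and lower calls thus depended on the scaling, and the cause was not tested. Leaving out 1 library in turn gave 2 to 3 enzymes higher and 1 lower, and 18 to 22 pathway genes higher and 6 to 8 lower. Of 304 alternative values of the named genes, 16 lost the call, in 6 genes. Whether the numbers in the columns pair the libraries cannot be told from 3 libraries per group. Correlations of same-numbered deviations were 0.131, 0.012 and 0.173, against -0.218 to 0.106 for the other pairs. Not every library correlated best with its own number. The fit with the replicate block called 3 enzymes higher and 1 lower, and 22 and 8 pathway genes, and ended the call of Slco4a1 (log2 difference -0.19, adjusted p = 0.0549). Depth limits Alox5, Ptgs2, Ltc4s and Ptges, which rest on few fragments per library.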
